A study of Mus musculus with 5 samples.

Results

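The genes described here are 30 genes of cholesterol synthesis and sterol regulation, a list drawn up by gene name and pathway and not by a threshold on measured values. All 30 were present in each of 3 deposited single-cell matrices, which held 18087, 19427 and 19603 gene symbols and 22552 different symbols in all. By role, 9 of them act from acetyl-CoA to the isoprenoids, 12 from squalene to cholesterol, 5 regulate the pathway and 4 move or store sterols. The summed level of 18 enzymes of synthesis, called the synthesis sum below, leaves out Acly, Ggps1 and Lbr, which also serve other pathways, together with the regulators and the transport genes.

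Live CD45+ leukocytes were sorted from tumours and cultures of mice and measured with droplet single-cell RNA sequencing. In 3 libraries, C57BL/6 mice carried subcutaneous 5555 melanoma tumours for 4 days: Ptgs+/+ tumours, Ptgs-/- tumours, whose cancer cells lack genes for prostaglandin-making cyclooxygenases, and Ptgs-/- tumours in mice depleted of natural killer (NK) cells with antibodies against NK1.1 and Asialo GM-1. For each of these 3 libraries a spike-in of 3.5% is recorded, and its part in the values was not tested. Another library held leukocytes of CT26 tumours, a colon carcinoma line, from BALB/c mice on day 12. In the last library, C57BL/6 bone marrow had been grown with the cytokines FLT3L and GM-CSF until day 10 into dendritic cells (DCs), either alone (untreated), with Ptgs+/+ 5555 cells or with Ptgs-/- 5555 cells, and the conditions were pooled. The Ptgs deletion lies in the injected or added cancer cells, not in the leukocytes measured, and whether each 5555 line is a single clone, and how many mice each library pooled, are not given in the sources used here. Every group is 1 library or 1 condition of a pool, so there is no replicate and no test between groups. A gene is called higher or lower where the fold itself reaches 1.5, and described as above or below where it need not, and every interval is a 95% interval of counting error only, in which UMIs (unique molecular identifiers, 1 per captured RNA molecule) are the counts.

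Cells make cholesterol from acetyl-CoA by way of mevalonate, the isoprenoid pyrophosphates, squalene and a series of sterols. When sterols in the endoplasmic reticulum run low, SCAP carries the transcription factor SREBP-2, encoded by Srebf2, to the Golgi, where it is cut and released to switch on the enzymes of synthesis. INSIG proteins, encoded by Insig1 and Insig2, hold that complex back when sterols are plentiful, and macrophages and dendritic cells also take up sterols from the cells they ingest, which NPC1 and NPC2 export from lysosomes and SOAT1 stores as esters.

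Promoters of 25 of the 30 genes were matched by symbol in RefSeq (GRCm38.p6), in windows from 250 bases before to 50 bases after each gene's start. 4 of them are shown, without annotated exons of coding genes, because Idi1 and Pmvk led the CCR7+ DCs in these data, Ebp was low there, and Hmgcs1 is the member whose window held the sterol regulatory element. Capitals mark matches, on either strand, to the sterol regulatory element consensus TCACNCCAC, the NF-Y box CCAAT and the Sp1 box GGGCGG. The windows shown lie at chr13:119690101-119690350 (+) for Hmgcs1, which encodes the synthase that makes HMG-CoA, at chr13:8885356-8885500 (+) for Idi1, the isopentenyl diphosphate isomerase, at chr3:89454291-89454540 (+) for Pmvk, phosphomevalonate kinase, and at chrX:8193513-8193762 (-) for Ebp, the sterol isomerase.
Hmgcs1: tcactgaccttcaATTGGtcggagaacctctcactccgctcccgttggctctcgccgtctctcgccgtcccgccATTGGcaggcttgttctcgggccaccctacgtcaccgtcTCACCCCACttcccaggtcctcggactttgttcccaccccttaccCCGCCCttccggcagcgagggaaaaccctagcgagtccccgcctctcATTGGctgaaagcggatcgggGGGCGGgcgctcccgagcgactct
Idi1: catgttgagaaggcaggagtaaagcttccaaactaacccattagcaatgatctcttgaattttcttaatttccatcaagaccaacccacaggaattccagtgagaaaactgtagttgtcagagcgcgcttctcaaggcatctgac
Pmvk: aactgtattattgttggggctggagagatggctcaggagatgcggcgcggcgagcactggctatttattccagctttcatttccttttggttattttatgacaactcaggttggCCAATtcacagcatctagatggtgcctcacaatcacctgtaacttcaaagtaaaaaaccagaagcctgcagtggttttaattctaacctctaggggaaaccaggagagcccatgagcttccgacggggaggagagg
Ebp: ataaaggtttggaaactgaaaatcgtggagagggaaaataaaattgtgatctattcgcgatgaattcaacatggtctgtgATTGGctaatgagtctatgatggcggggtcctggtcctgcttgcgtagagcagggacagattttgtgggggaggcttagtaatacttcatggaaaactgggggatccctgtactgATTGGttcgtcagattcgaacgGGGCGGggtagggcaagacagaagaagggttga
The stretch of Hmgcs1 held 1 TCACNCCAC, 3 CCAAT and 2 GGGCGG, that of Pmvk 1 CCAAT, and that of Ebp 2 CCAAT and 1 GGGCGG. The 145 bases of Idi1 held none of these letters, while its whole window, with the part nearest the start, held 2 CCAAT and 1 GGGCGG. TCACNCCAC was in the windows of 1 of the 25 genes and in 1.24% of 32851 windows of all genes. CCAAT was in 72.7% of the 33 windows of these genes against 37.4% of all windows, and GGGCGG in 81.8% against 35.7% (46.2% of windows of protein-coding genes). A match is a description of the letters in the window and not a site of binding.

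The 5555 matrix gave 11818 annotated cells, CT26 8987 and the cultures 10812, with median UMIs per cell from 3634 in Ptgs+/+ tumours to 9709 in untreated cultures. The 3 matrices were normalised separately, so levels are compared within a matrix. Cell types are the authors' own, and the cells they named cDC3, actDC and mDC in the 5555, CT26 and culture data are written here as CCR7+ DCs, the mature migratory state. Their 8 fixed markers summed to between 5757 and 17279 CPM (UMIs scaled to the same total in every cell) in CCR7+ DCs and to at most 942 CPM in the cDC1s and cDC2s of the same groups. Melanoma genes summed to at most 25.4 CPM in the DC classes compared here. In 5555 tumours 9 cell barcodes occurred more than once and their 18 cells were left out. No doublet caller was run and free RNA was not subtracted.

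In every tumour group cDC1s and cDC2s held more mRNA of the synthesis enzymes than the pooled monocytes and macrophages, and the order of the DC classes differed between groups. In Ptgs+/+ tumours the synthesis sum, as the mean over cells, was 839 CPM in cDC2s, 789 in cDC1s, 499 in CCR7+ DCs and 398 in monocytes and macrophages. In Ptgs-/- tumours it was 592, 734, 867 and 259 CPM, and after NK depletion 546, 463, 976 and 276 CPM. CCR7+ DCs stood below both conventional subsets in Ptgs+/+ tumours and above them in both Ptgs-/- libraries, although the interval for CCR7+ DCs of Ptgs-/- tumours (771 to 972) overlapped that of cDC1s (627 to 855). Between the conventional subsets, cDC1s lay above cDC2s in Ptgs-/- tumours, with counting intervals that do not overlap. The sum had a standard deviation over cells of 1059 CPM in these 33 cDC1s and 751 CPM in cDC2s. Neutrophil markers summed to 1350 CPM in these cDC1s and 67.6 CPM in cDC2s, and their part was not tested. In the other tumour groups cDC1s lay below cDC2s, and the intervals overlapped in Ptgs+/+ tumours and after NK depletion. In CT26 tumours plasmacytoid DCs (pDCs), the interferon-producing type, had the highest sum, 1047 CPM (979 to 1120), followed by cDC2s at 755, CCR7+ DCs at 720 and cDC1s at 609. CCR7+ DCs and cDC2s of CT26 tumours had overlapping counting intervals, and monocytes and macrophages held 374 CPM. The class the authors named moDC held 340 CPM there, at 1514 median UMIs per cell against 5909 in cDC2s. In cultures all DC classes lay between 887 CPM (pDCs with Ptgs-/- cells) and 1408 CPM (untreated cDC1s).

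**Figure D1:**
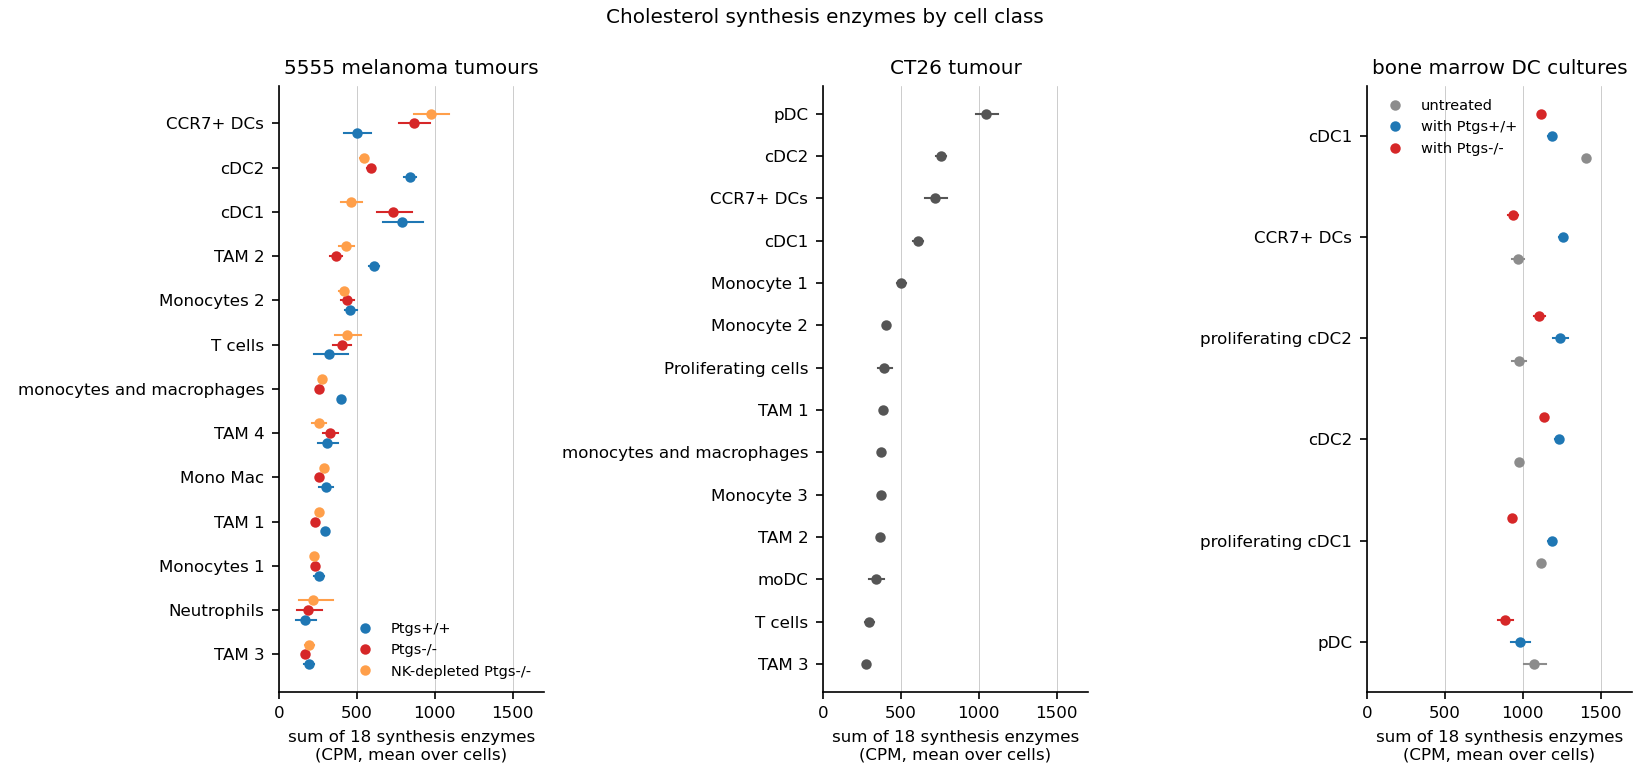
Summed level of 18 cholesterol synthesis enzymes (CPM, mean over cells, x axis) in each cell class with at least 30 cells; points are groups and lines 95% counting intervals, and the NK and B cell classes are left out. In 5555 tumours CCR7+ DCs lie at 499 CPM in the Ptgs+/+ library and at 867 and 976 CPM in the Ptgs-/- libraries, while monocytes and macrophages stay between 259 and 398 CPM.

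cDC2s exceeded monocytes and macrophages in many members at once. In Ptgs+/+ tumours 12 of 27 members seen in at least 5% of cells were higher and 2 lower by 1.5-fold, against 11.7% and 11.4% of all genes seen; in Ptgs-/- tumours 15 of 27 were higher and 3 lower (8.87% and 10.3% of all genes). After NK depletion 14 of 26 were higher and 3 lower (9.35% and 11.3% of all genes), and in CT26 tumours 12 of 26 were higher and 1 lower (7.73% and 12.4% of all genes). Hmgcs1, Pmvk, Idi1, Fdps (farnesyl diphosphate synthase), Fdft1 and Sqle (the first enzymes of the squalene branch), Cyp51 and Hsd17b7 (sterol demethylation) and Srebf2 itself were higher in all 4 groups. Npc2, the lysosomal sterol carrier, was lower in all 4, at log2 folds from -1.14 to -0.84. These classes were clustered on the same genes, so the differences describe the classes and are not tested.

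pDCs of CT26 tumours held the highest level of any of 14 classes for 13 of 28 members seen, against 15% of all genes. Among them were Hmgcs1 (142 CPM), Fdps (115 CPM), Msmo1, the methyl sterol oxidase (126 CPM), and Dhcr7, the last reductase of the pathway (31.1 CPM). Scap stood at 62.1 CPM in pDCs against 4.99 CPM in CCR7+ DCs, and Npc1 at 174 CPM against 4.41 CPM. Soat1 was lowest in pDCs, at 15.8 CPM, against 175 CPM in monocytes and macrophages. In cultures pDCs were also the highest class for Scap and Npc1 in all 3 conditions, at 56.9, 30.9 and 43.7 CPM for Scap and 122, 87.0 and 82.6 CPM for Npc1 (untreated, with Ptgs+/+ and with Ptgs-/- cells). pDCs were the highest class for 9, 6 and 6 of 30 members there, where 30.3%, 27.5% and 30.8% of all genes were. Neutrophil markers summed to 1790, 11196 and 3582 CPM in these cultured pDCs, above every other DC class of the same condition, and their part was not tested.

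CCR7+ DCs split the pathway. Pmvk had its highest mean level of all classes in CCR7+ DCs in all 7 groups and Idi1 in 6 of 7. Against cDC2s alone Pmvk was called higher in 6 of 7 and Idi1 in 5 of 7. Lbr (a sterol reductase that is also a nuclear envelope protein), Ebp, Dhcr7, Npc1 and Soat1 lay below the cDC2 level in all 7, also relative to the median of all genes. So did Acly, from the acetyl-CoA end of the pathway, at log2 folds from -1.43 to -0.51. Acat2, Lss and Sqle were below in all 7 before that adjustment, with Acat2 and Lss seen in at least 5% of cells in 3 groups. CCR7+ DCs were the highest class for 1 of 28 members in Ptgs+/+ tumours (11.4% of all genes), 7 of 28 in Ptgs-/- tumours (9.3%), 4 of 27 after NK depletion (9.52%) and 2 of 28 in CT26 tumours (9.87%). In cultures they were so for 2 of 30 in each condition, Pmvk and Idi1 (16.6% of all genes untreated, 14.7% with Ptgs+/+ and 13.6% with Ptgs-/- cells). The 7 in Ptgs-/- tumours were Hmgcs1, Pmvk, Idi1, Fdft1, Tm7sf2 (a sterol reductase), Nsdhl and Hsd17b7. Pmvk in CCR7+ DCs stood at 159, 127 and 146 CPM in Ptgs+/+, Ptgs-/- and NK-depleted tumours, at 268 CPM in CT26 tumours and at 170, 349 and 244 CPM in untreated cultures and cultures with Ptgs+/+ and Ptgs-/- cells. In cDC2s of the same groups Pmvk stood at 129, 37.9, 36.5, 77.6, 92.0, 139 and 150 CPM. The cDC2 value of Ptgs+/+ tumours was the 1 that came near the CCR7+ DCs, at a log2 fold of 0.30 and a UMI ratio of 1.27 (0.918 to 1.73), and the other 6 groups ran from 0.68 to 1.86. Idi1 in CCR7+ DCs stood at 97.8, 235, 315, 168, 138, 234 and 226 CPM in the same order, and in cDC2s at 99.5, 64.7, 58.7, 65.0, 92.0, 106 and 103 CPM. Its log2 fold over cDC2s was -0.02 in Ptgs+/+ tumours and 0.56 to 2.33 in the other 6 groups.

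The enzymes next to these in the chain did not share the pattern. Mvk, the kinase just before Pmvk, had log2 folds of CCR7+ DCs over cDC2s from -1.27 to 0.29 over the 7 groups. Mvd, the decarboxylase just after it, ran from -0.64 to 0.18, and Fdps from -2.23 to 0.08. Ebp stood at 9.77, 13 and 37.9 CPM in CCR7+ DCs of Ptgs+/+, Ptgs-/- and NK-depleted tumours against 63.7, 58.7 and 60.3 CPM in cDC2s, at 37.1 against 85.3 CPM in CT26 tumours, and at 25.9, 17.6 and 20.6 CPM against 68.4, 56.2 and 55.1 CPM in the 3 culture conditions. No group of CCR7+ DCs reached the cDC2 level of Ebp. Lbr was lowest in CT26 tumours, with 1 UMI in 112 CCR7+ DCs (1.08 CPM) against 164 UMIs (59.5 CPM) in cDC2s. Without Idi1 and Pmvk, an alternative chosen after seeing the data, the synthesis sum of CCR7+ DCs over cDC2s was -1.09 instead of -0.07 (log2) in CT26 tumours, -0.26 instead of -0.01 in untreated cultures and 0.04 instead of 0.55 in Ptgs-/- tumours.

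Among the regulators, Srebf2 differed least between CCR7+ DCs and cDC2s, at log2 folds from -0.44 to 0.17. Insig2, a sterol-sensing anchor, was below cDC2s in all 7 groups (-2.22 to -0.34), and so were Scap (-1.93 to -0.15) and Srebf1, which drives fatty acid synthesis (-1.89 to -0.02), although relative to the median of all genes Scap was above 0 in Ptgs-/- tumours and Srebf1 in CT26 tumours and untreated cultures. Insig1, both a brake on SREBP and one of its targets, stood above cDC2s in NK-depleted tumours alone, at 0.03, and relative to the median of all genes also in untreated cultures. Of the transport genes, Npc2 was above cDC2s in all 7 groups (0.48 to 1.48) and reached 3035 CPM in CCR7+ DCs of CT26 tumours, whereas Npc1, its membrane partner, was below in all 7 (-2.44 to -0.58). Soat1, which esterifies cholesterol for storage, was below in all 7 (-2.43 to -0.70). These transport patterns depend in part on the class compared. Over cDC1s, Npc1 was above 0 in 2 of 7 groups (-1.37 to 0.28) and Npc2 in 6 of 7 (-0.09 to 1.45). Soat1 was below cDC1s in all 7 (-1.31 to -0.36).

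Counted over all members, CCR7+ DCs were lower than cDC2s in 19 of 27 members seen and higher in 0 in Ptgs+/+ tumours (38.6% and 18.9% of all genes), and lower in 11 and higher in 6 of 28 in Ptgs-/- tumours (39.6% and 17%). After NK depletion 10 of 26 were lower and 6 higher (39.3% and 18.6%), and in CT26 tumours 17 of 26 were lower and 3 higher (40.5% and 18.2%). In untreated cultures 4 of 30 were lower and 2 higher (17.8% and 13.1%), with Ptgs+/+ cells 12 and 3 (31.6% and 12.7%), and with Ptgs-/- cells 17 and 3 (27.3% and 13.4%). The median log2 fold of all genes, taken over those with a UMI in 10% or more of the cells of either group, was itself below 0, from -0.36 (CT26) to -0.12 (untreated). Relative to that median the counts were 14 lower and 2 higher in Ptgs+/+ tumours (27.7% and 27.7% of all genes), 9 and 9 in Ptgs-/- tumours (28.1% and 25.7%), 8 and 7 after NK depletion (29.4% and 26.7%) and 13 and 3 in CT26 tumours (28% and 27.1%). In cultures they were 3 and 3 untreated (12.3% and 16.5%), 9 and 3 with Ptgs+/+ cells (19.5% and 19.2%) and 12 and 3 with Ptgs-/- cells (18% and 19.6%).

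**Figure D2:**
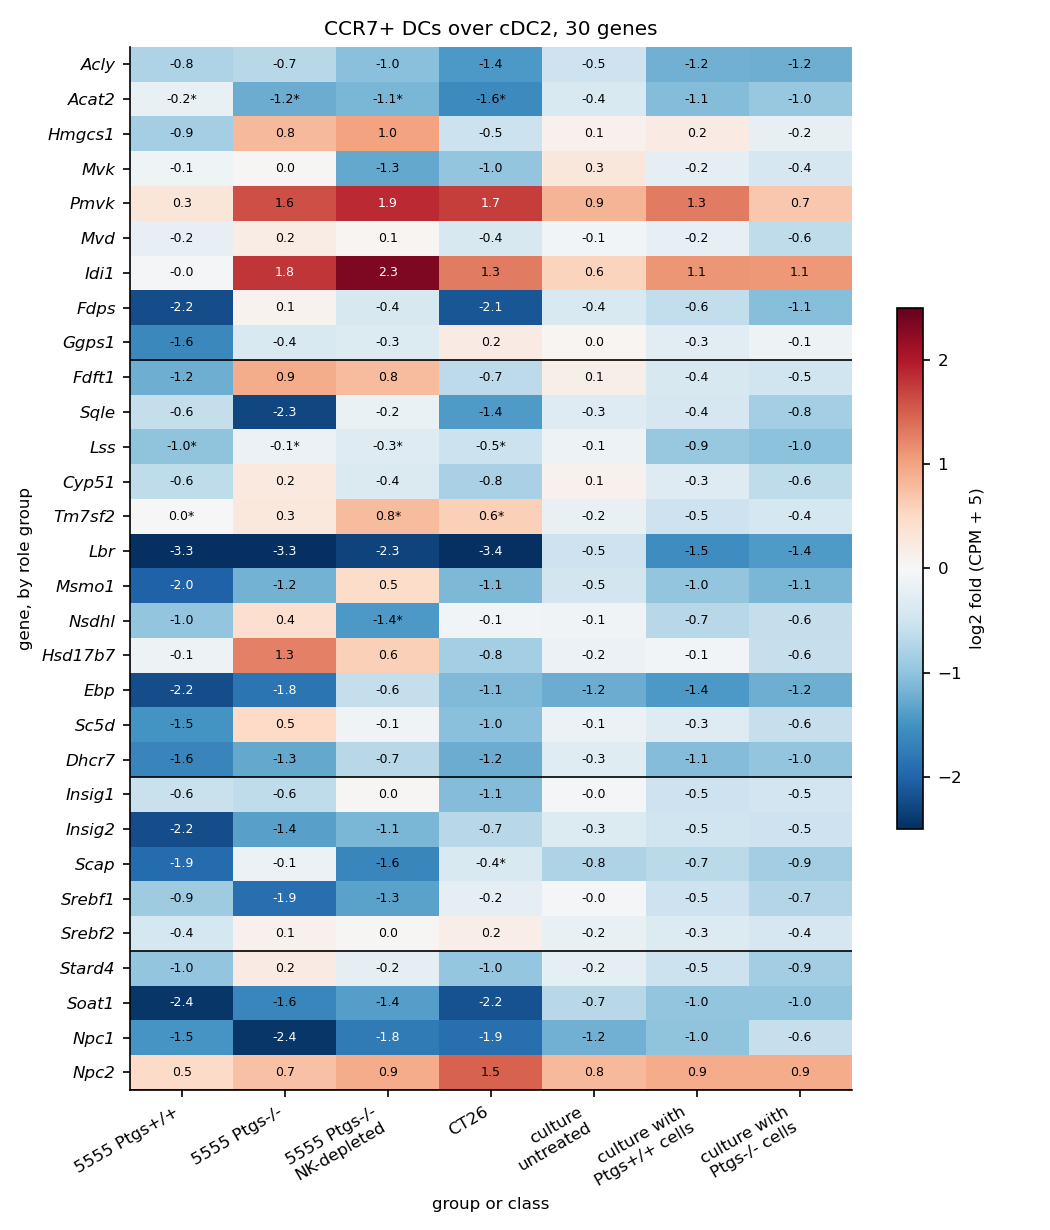
Log2 fold of CCR7+ DCs over cDC2s (colour and number; colours end at 2.5 in each direction) for the 30 genes (y axis, in their 4 role groups, divided by lines) in the 7 groups (x axis), as log2(mean CPM + 5); a star marks genes seen in under 5% of cells of both classes. Pmvk and Npc2 are above 0 in all 7 groups, and Acly, Lbr, Ebp, Dhcr7, Soat1 and Npc1 are among the genes below 0 in all 7.

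Between Ptgs-/- and Ptgs+/+ tumours, the question of what cancer cell prostaglandin production does to infiltrating cells, the synthesis sum was higher in CCR7+ DCs. It was lower in the pooled monocytes and macrophages, though not in each of their clusters, and below the Ptgs+/+ level in cDC2s by less than 1.5-fold. In CCR7+ DCs it was 867 CPM (58 cells, 296 UMIs) against 499 CPM (54 cells, 137 UMIs), a log2 fold of 0.79, and the ratio of UMIs was 1.68 (1.37 to 2.07). Of 25 members seen, 13 were higher and 3 lower by 1.5-fold, against 24% and 23.7% of all genes. With so few cells and UMIs, many genes of any kind pass this size in either direction.

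Idi1 stood at 235 against 97.8 CPM in CCR7+ DCs, with a UMI ratio of 2.65 (1.63 to 4.47), and Hmgcs1 at 167 against 70.7 CPM, with a ratio of 2.14 (1.26 to 3.76). Fdft1, squalene synthase, stood at 46.3 against 8.73 CPM (15 and 3 UMIs; ratio 3.88, 1.10 to 20.9) and Sc5d, a sterol desaturase, at 40.5 against 4.75 CPM (15 and 1 UMIs; ratio 11.7, 1.79 to 491). These were the 4 higher members whose counting interval lay above 1. Cyp51 stood at 84.3 against 42.5 CPM and Acly, which makes cytosolic acetyl-CoA, at 87.2 against 49.9 CPM, with intervals that include 1 (0.966 to 4.17 and 0.907 to 3.74). The remaining higher members, Mvd, Fdps, Ggps1 (the geranylgeranyl diphosphate synthase), Nsdhl and Hsd17b7 (demethylation of sterols), Scap and Stard4 (a sterol carrier), had at most 11 UMIs in either group. Sqle, Srebf1 and Npc1, the lower members, had at most 5. Pmvk, the other enzyme that leads in these cells, was not higher, at 127 against 159 CPM, and Insig1 stood at 35.0 against 45.2 CPM.

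Other values moved with this comparison. The 7 macrophage markers summed to 146 against 41.7 CPM in these CCR7+ DCs, with 6 of 7 higher and C1qa and C1qc at 0 in the Ptgs+/+ cells. The CCR7+ DC markers summed to 15147 against 12915 CPM, with 1 of 8 higher. Cells with a UMI of a cell-cycle gene were 8.62% against 3.70%, while the 11 cell-cycle markers summed to 84.7 against 96.5 CPM, with 1 higher and 4 lower. Their part in the result was not tested. The log2 fold of the synthesis sum was 0.85 when DCs were filtered on single genes of other lineages, with C1qa as the only macrophage gene. Cells that held only other macrophage markers stayed in, so the part of those markers was not tested by this filter. Without cells that held a UMI of selected cell-cycle genes the log2 fold was 0.72.

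**Figure D3:**
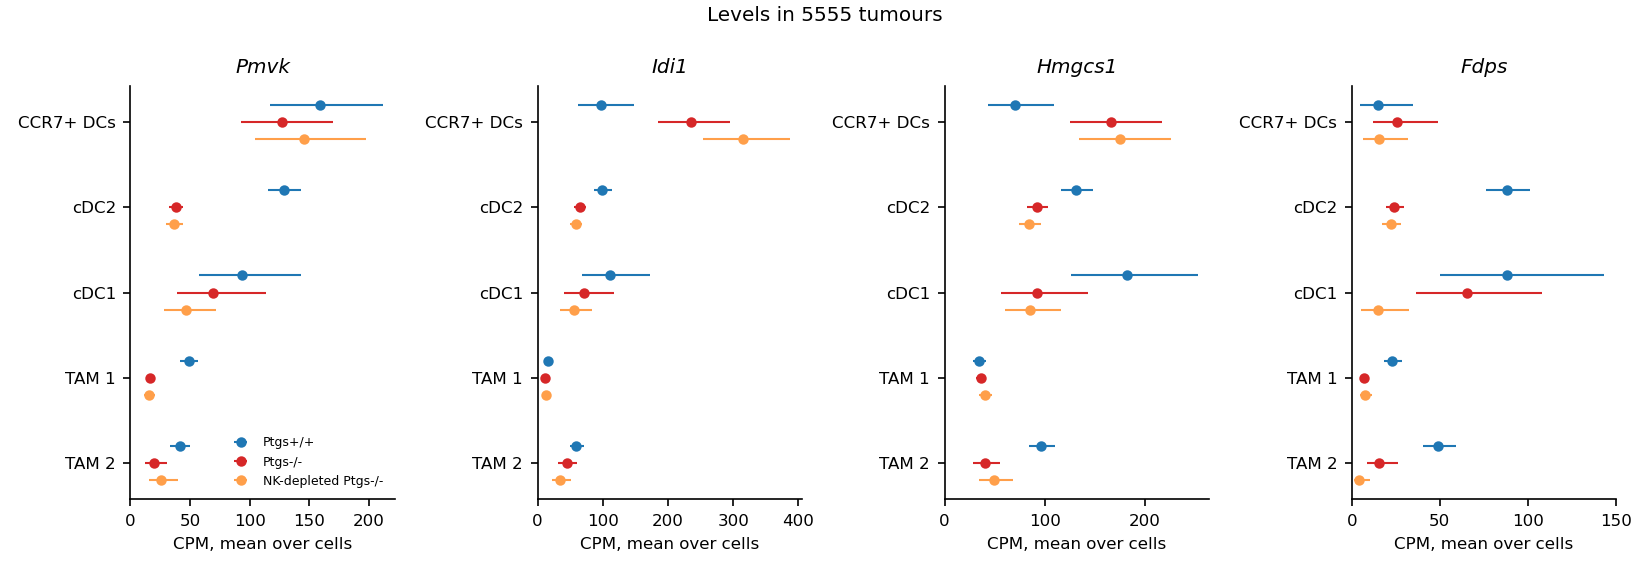
Levels of Pmvk, Idi1, Hmgcs1 and Fdps (CPM, mean over cells, x axes) in 5 cell classes of the 3 groups of 5555 tumours, with 95% counting intervals. In CCR7+ DCs Idi1 lies at 97.8 CPM in Ptgs+/+ tumours and at 235 and 315 CPM in the Ptgs-/- libraries, whereas in cDC2s Pmvk and Fdps are higher in the Ptgs+/+ library than in both Ptgs-/- libraries.

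In cDC2s the synthesis sum was 592 CPM (523 cells) in Ptgs-/- against 839 CPM (379 cells) in Ptgs+/+ tumours, a log2 fold of -0.50, and 2 members were called lower. Fdps stood at 24.1 against 88.2 CPM, with a UMI ratio of 0.268 (0.206 to 0.347), and Pmvk at 37.9 against 129 CPM, with a ratio of 0.289 (0.238 to 0.350). Idi1 (64.7 against 99.5 CPM) and Hmgcs1 (92.6 against 132 CPM) were lower by less than 1.5-fold, with intervals below 1. Acly was the 1 member called higher, at 144 against 88.3 CPM. These 2 lower and 1 higher of 27 members compare with 7.57% and 10.7% of all genes. Cycling cells were 21.0% against 11.3% of cDC2s, and 6 of 7 macrophage markers were higher (2048 against 748 CPM summed); their part was not tested. In cDC1s, with 33 and 38 cells, the sum was 734 against 789 CPM, and 9 of 28 members were higher and 6 lower (27.6% and 21.8% of all genes). Cycling cells were 33.3% against 0% of these cDC1s and neutrophil markers 1350 against 21.4 CPM, and their part was not tested.

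Fdps and Pmvk were also below their Ptgs+/+ level in each of the 7 monocyte and macrophage clusters. The log2 folds ran from -1.54 to -0.51 for Fdps, past 1.5-fold in 6 clusters, and from -1.34 to -0.08 for Pmvk, past it in 5; Fdps was seen in at least 5% of cells in 5 clusters. Over all monocytes and macrophages Fdps stood at 7.20 against 28.4 CPM (UMI ratio 0.25, 0.201 to 0.311) and Pmvk at 17.2 against 38.3 CPM (0.431, 0.370 to 0.501). After NK depletion both stayed at the level of the Ptgs-/- library, at 5.61 CPM for Fdps and 18.1 CPM for Pmvk. Both genes were low in each of the 2 Ptgs-/- libraries and high in the 1 Ptgs+/+ library across cDC2s, monocytes and macrophages, so tumour genotype and a difference of that library cannot be told apart. An exon of Fdps overlaps that of another annotated gene, and how the authors counted shared reads is not given in the sources used here.

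Over all monocytes and macrophages the synthesis sum was 259 against 398 CPM (log2 fold -0.61, 3184 and 2360 cells), with 6 of 21 members lower and 0 higher (6.57% and 8.47% of all genes). The lower ones were Fdps, Pmvk, Msmo1, Idi1, Stard4 and Srebf2. The class differs in make-up. The cluster the authors named TAM 2, which had the highest sum of the 7 in Ptgs+/+ tumours (610 CPM), held 678 of 2360 cells there and 240 of 3184 in Ptgs-/- tumours, and with the 7 clusters weighted equally the log2 fold was -0.26. By cluster the log2 fold of the sum was -0.73 in TAM 2, -0.37 in TAM 1, -0.21 in Mono Mac and -0.19 in TAM 3. It was -0.15 in Monocytes 1, -0.07 in Monocytes 2 and 0.08 in TAM 4. In TAM 3, TAM 4, Monocytes 1 and Monocytes 2 the interval of the UMI ratio includes 1. Within TAM 2 the sum was 366 against 610 CPM, with 8 of 22 members lower and 1 higher (11.1% and 16.5% of all genes). Hmgcs1 stood there at 40.1 against 96.5 CPM (ratio 0.438, 0.302 to 0.621) and Msmo1 at 52.5 against 110 CPM (0.422, 0.298 to 0.585), while Acly stood at 214 against 82.3 CPM (2.73, 2.22 to 3.35). Acly was above its Ptgs+/+ level in all 7 clusters, opposite to Fdps and Pmvk. In the same cells macrophage markers were higher (8134 against 4428 CPM over the class, 5 of 7) and neutrophil markers lower (183 against 683 CPM, 6 of 7), and their part was not tested.

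**Figure D4:**
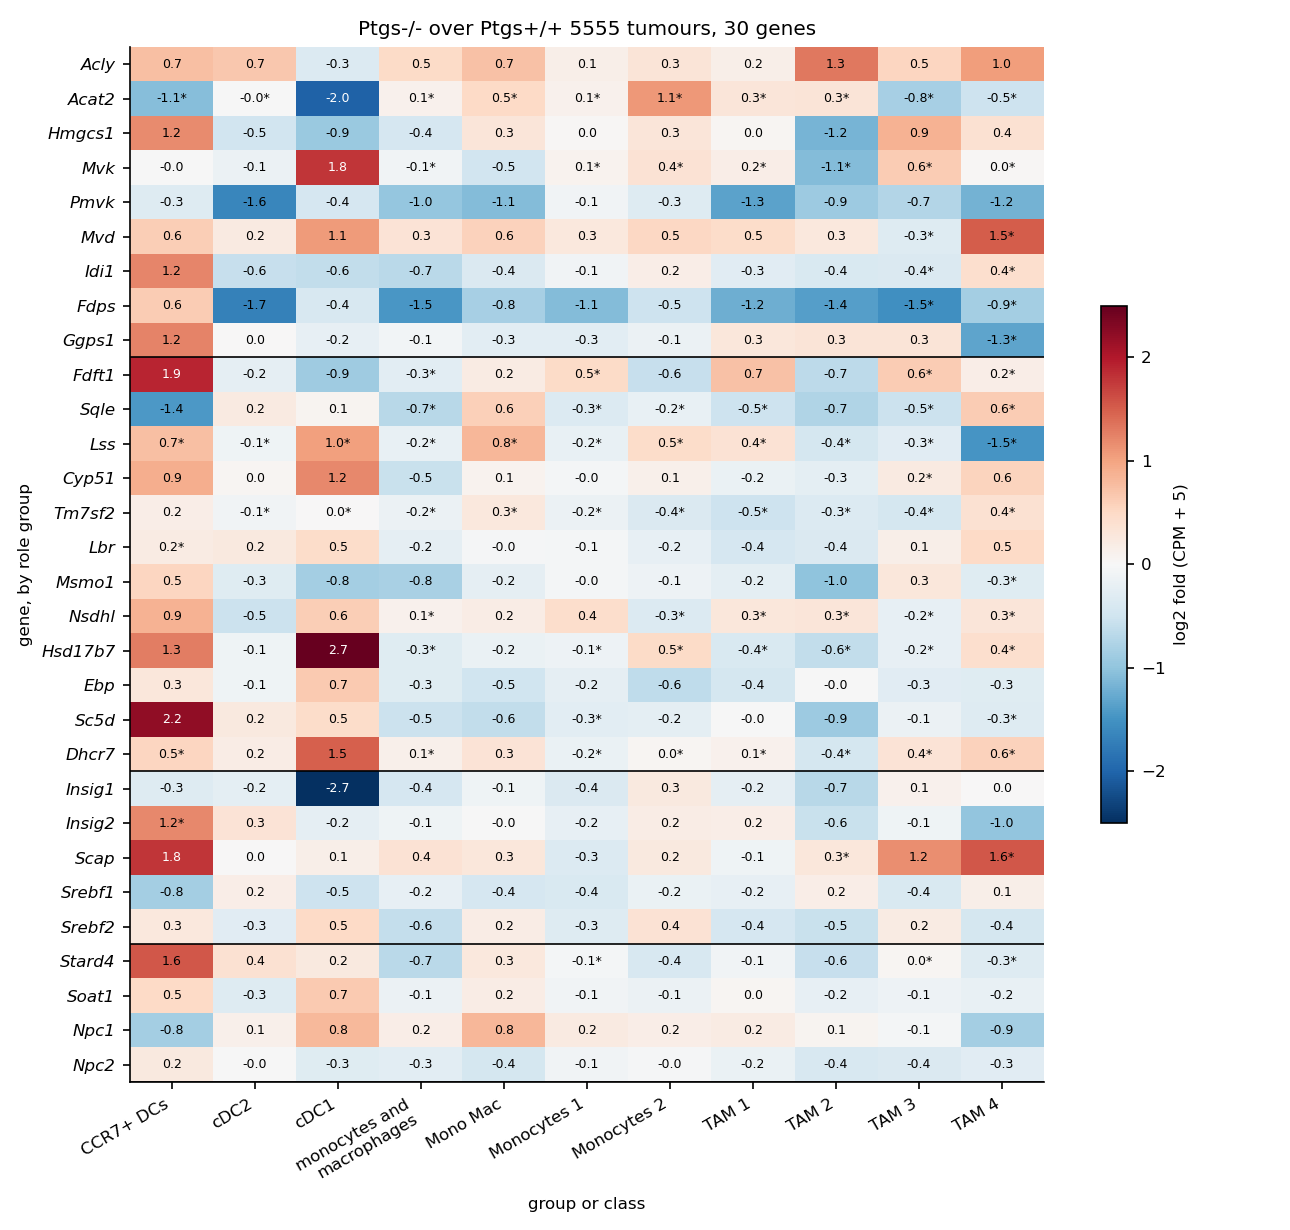
Log2 fold of Ptgs-/- over Ptgs+/+ 5555 tumours (colour and number; colours end at 2.5 in each direction) for the 30 genes (y axis, role groups divided by lines) in DC classes, all monocytes and macrophages and their 7 clusters (x axis), as log2(mean CPM + 5); a star marks genes seen in under 5% of cells of both groups. Fdps and Pmvk are below 0 in all 7 clusters and Acly above 0 in all 7, while in CCR7+ DCs Idi1, Hmgcs1, Fdft1 and Sc5d lie between 1.18 and 2.22.

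The comparison of NK-depleted with undepleted Ptgs-/- tumours shares the undepleted library with the comparison above. Few members passed 1.5-fold in the large classes and more in the small ones, where a larger share of all genes passed it too. In cDC2s 0 of 27 members were higher or lower by 1.5-fold (3.54% and 3.49% of all genes), and in monocytes and macrophages 1 of 20, Lbr, was higher and 0 lower (1.14% and 1.29%). In CCR7+ DCs the sum was 976 against 867 CPM (log2 fold 0.17), with 5 of 27 members higher and 8 lower (21.7% and 19.9% of all genes). Msmo1 stood there at 86.4 against 29.0 CPM (22 and 11 UMIs; ratio 2.71, 1.26 to 6.19) and Ebp at 37.9 against 13 CPM (12 and 4 UMIs; 4.07, 1.23 to 17.3), and both intervals lay above 1. So did those of Idi1 at 315 against 235 CPM (1.66, 1.21 to 2.29) and Hmgcs1 at 176 against 167 CPM (1.5, 1.03 to 2.21), which were not called. Cell-cycle markers summed to 222 against 84.7 CPM in these CCR7+ DCs, with 6 of 11 higher, NK markers to 220 against 125 CPM, with 1 of 6 higher, 1 lower and Ncr1, Klrb1c, Eomes and Prf1 at 0 in both groups, and cDC1 markers to 829 against 1310 CPM, with 3 of 7 lower and 1 higher; their part was not tested. In cDC1s, with 54 and 33 cells, the sum was 463 against 734 CPM, and 8 of 27 members were lower and 2 higher (16.5% and 20.8%). Neutrophil markers summed to 29.3 against 1350 CPM in these cDC1s and cell-cycle markers to 707 against 1219 CPM, with 4 of 7 and 6 of 11 lower and 1 cell-cycle marker higher, and their part was not tested. In B cells, with 36 and 44 cells, the sum was 368 against 105 CPM on 24 and 10 UMIs (ratio 2.70, 1.24 to 6.32), and 11 of 17 members were higher and 3 lower (37.6% and 20.7% of all genes). Each of those 14 genes had an interval that includes 1. Cell-cycle markers summed to 147 against 52.3 CPM and macrophage markers to 272 against 114 CPM in these B cells, with 3 of 11 and 5 of 7 higher and 1 macrophage marker lower, and their part was not tested. The class named NK cells after depletion held NK markers at 110 CPM summed, against 10598 CPM without depletion, and is not compared.

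In cultures, CCR7+ DCs grown with Ptgs+/+ cells held more Pmvk and Idi1 than untreated ones. Pmvk stood at 349 against 170 CPM (2685 and 369 UMIs; ratio 1.90, 1.71 to 2.13) and Idi1 at 234 against 138 CPM (1854 and 318 UMIs; 1.53, 1.35 to 1.72). They were the 2 of 29 members called higher, against 3.26% of all genes. Lbr (8.77 against 27.1 CPM), Scap (1.51 against 5.82), Srebf1 (10.8 against 21.2) and Dhcr7 (2.83 against 7.24) were the 4 called lower, where 25.7% of all genes were. The median of all genes was -0.28, and relative to it 2 members were higher and 1, Lbr, lower (8.57% and 10.8% of all genes). The synthesis sum was 1255 against 969 CPM, a log2 fold of 0.37, and without Idi1 and Pmvk it was 0.02. Neutrophil markers were 156 against 715 CPM, 7 of 11 cell-cycle markers were lower (82.2 against 194 CPM summed) and 3 of 8 CCR7+ DC markers higher in the same comparison, and their part was not tested.

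With Ptgs-/- cells, compared with the same untreated culture, Idi1 was as high in CCR7+ DCs, at 226 CPM, and Pmvk stood between, at 244 CPM. There 1 of 29 members was higher and 8 lower (2.15% and 20.4% of all genes), and relative to the median of all genes, -0.23, 2 were higher and 5 lower (6.5% and 9.13%). Srebf1, Lss (lanosterol synthase), Lbr, Mvk, Scap, Cyp51, Dhcr7 and Sqle were the 8. Set against each other, CCR7+ DCs with Ptgs-/- cells held less than those with Ptgs+/+ cells: the sum was 938 against 1255 CPM (log2 fold -0.42; UMI ratio as log2 -0.34, -0.39 to -0.28), with 4 of 26 members lower and 0 higher (1.5% and 2.33% of all genes). Fdps stood at 156 against 245 CPM (ratio 0.728, 0.666 to 0.795), Sqle at 16.3 against 29.2 CPM (0.608, 0.455 to 0.802), Mvk at 11.2 against 19.5 CPM (0.534, 0.371 to 0.754) and Hsd17b7 at 2.25 against 7.29 CPM (0.336, 0.147 to 0.682). Pmvk (0.746, 0.690 to 0.805) and Hmgcs1 (0.772, 0.676 to 0.879) were lower by less than 1.5-fold. The direction is opposite to that in CCR7+ DCs of 5555 tumours, where the synthesis sum was higher with Ptgs-/- cancer cells. That difference was not tested. In the cultured CCR7+ DCs with Ptgs-/- against Ptgs+/+ cells, CCR7+ DC markers summed to 6233 against 8010 CPM. Neutrophil markers summed to 70.7 against 156 CPM there, and the part of these markers was not tested.

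**Figure D5:**
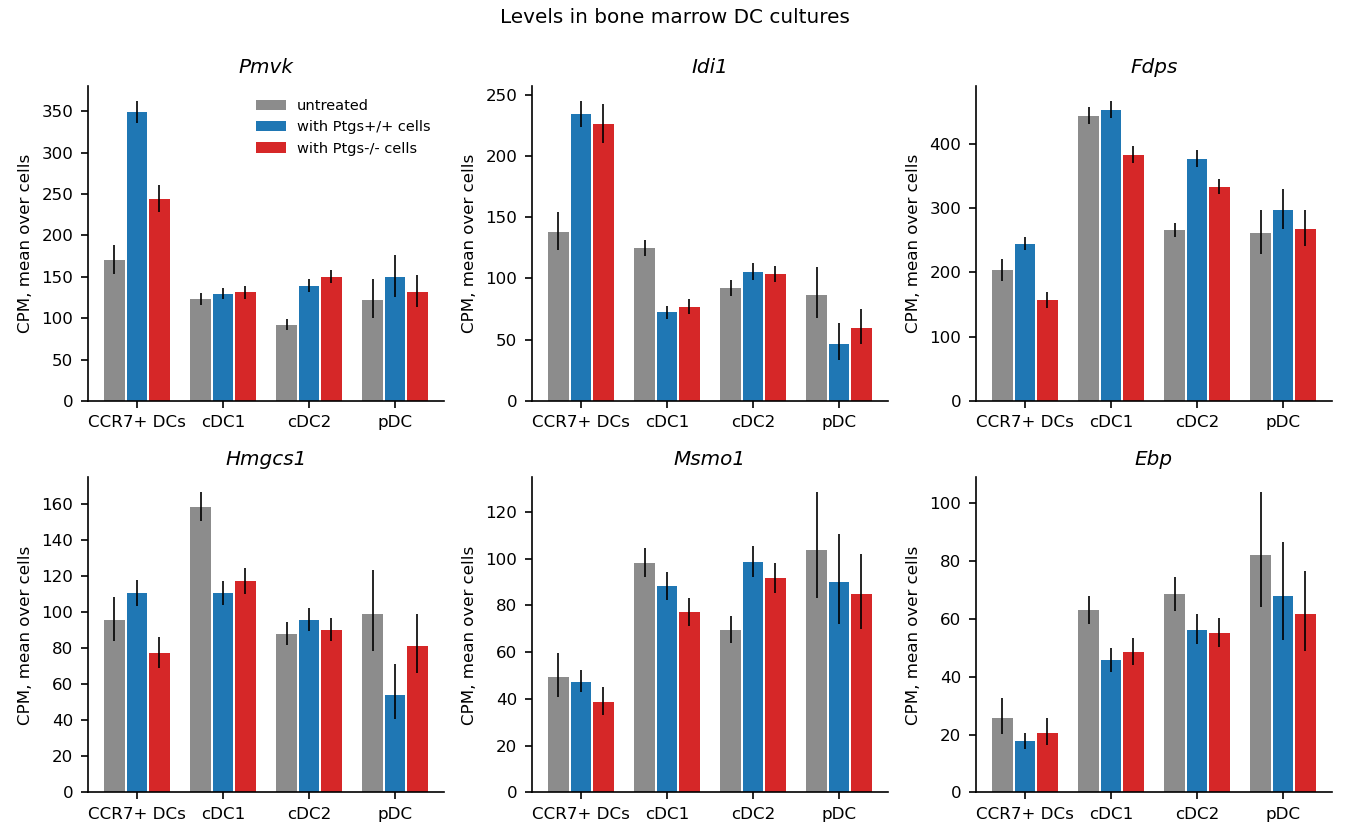
Levels of 6 members (CPM, mean over cells, y axes) in 4 DC classes of bone marrow cultures that were untreated or grown with Ptgs+/+ or Ptgs-/- 5555 cells; lines are 95% counting intervals. In CCR7+ DCs Pmvk lies at 170, 349 and 244 CPM and Idi1 at 138, 234 and 226 CPM, while Ebp is lower in CCR7+ DCs than in the other 3 classes in every condition.

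In cultured cDC1s the sum was 1408 CPM untreated, 1186 with Ptgs+/+ and 1118 with Ptgs-/- cells, and Idi1 stood at 125, 72.3 and 76.9 CPM. The 7 cDC1 markers summed to 3566, 1806 and 2552 CPM in the same cells, with 7 called lower with Ptgs+/+ and 3 with Ptgs-/- cells. The cell-cycle markers summed to 288, 94.8 and 124 CPM, and cycling cells were 28.2%, 16.1% and 18.6%; their part was not tested. With Ptgs+/+ cells 0 of 30 members were higher and 5 lower in cDC1s (3.71% and 15.9% of all genes), and relative to the median of all genes, -0.24, 2 were higher and 0 lower (7.36% and 5.57%). With Ptgs-/- cells 1 was higher and 3 lower (2.44% and 8.3%), and relative to the median, -0.16, 1 was higher and 0 lower (4.53% and 3.2%). In cDC2s the sum was 974, 1230 and 1136 CPM in the same order, with Fdps at 265, 376 and 333 CPM and Pmvk at 92.0, 139 and 150 CPM. There 0 of 30 members were higher and 1 lower with Ptgs+/+ cells (2.43% and 5.9%), 3 and 1 relative to the median of -0.12 (3.76% and 2.74%), and 1 was higher and 1 lower with Ptgs-/- cells (1.83% and 5.78%; median of all genes -0.14). Between the 2 co-cultures 0 of 30 members were called in cDC1s (0.807% higher and 0.847% lower of all genes) or in cDC2s (0.158% and 0.558%). In pDCs 5 of 28 members were lower and 1 higher (6% and 9.84%), in proliferating cDC2s 3 of 30 lower and 0 higher (2.96% and 3%), and in proliferating cDC1s 1 of 30 lower and 0 higher (1.12% and 0.729%). The sum in proliferating cDC1s was 932 with Ptgs-/- against 1189 CPM with Ptgs+/+ cells, a UMI ratio of 0.794 (0.769 to 0.819), close to the 0.791 (0.761 to 0.822) of CCR7+ DCs. In the class named proliferating cDC2s it was 975 CPM untreated, 1240 with Ptgs+/+ and 1106 with Ptgs-/- cells, the order also seen in cDC2s. In these cells cDC2 markers summed to 932, 658 and 660 CPM over the same conditions. There pDC markers stood at 2146, 2273 and 2587 CPM and monocyte markers at 1552, 2701 and 3032 CPM, so the class is not cDC2s alone by its markers. Neutrophil markers stood at 869, 5086 and 1086 CPM, and the part of these markers was not tested.

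Other lipid genes were described from 3 lists. SREBP-1 lipogenic genes mostly serve fatty acid synthesis. In CCR7+ DCs over cDC2s, 0 of 9 seen were higher and 6 lower in Ptgs-/- tumours (17% and 39.6% of all genes). In CT26 tumours 0 of 8 were higher and 6 lower (18.2% and 40.5%). In cultures with Ptgs+/+ cells 0 of 11 were higher and 9 lower (12.7% and 31.6%). Fasn, fatty acid synthase, stood at 2.18 against 22.2 CPM (1 and 60 UMIs) in CT26 tumours, and Scd2, a desaturase, at 21.0 against 139 CPM in Ptgs-/- tumours. Of the sterol carriers, 2 of 10 were higher and 5 lower in both of these tumours. That is near the shares of all genes (17% and 39.6% in Ptgs-/-, 18.2% and 40.5% in CT26 tumours). Lima1, an actin-binding protein that also acts in sterol uptake, stood at 285 against 13.9 CPM in CT26 and 336 against 20.7 CPM in Ptgs-/- tumours. Oxysterol and efflux genes include the LXR receptors themselves, genes that respond to sterol excess through them, and others, so their counts do not measure an LXR response. In CCR7+ DCs of Ptgs-/- over Ptgs+/+ tumours 4 of 9 were higher and 1 lower (24% and 23.7% of all genes). Nr1h3, an LXR receptor, stood there at 50.1 against 5.05 CPM (25 and 1 UMIs) and Abcg1, a sterol exporter, at 144 against 55.2 CPM. In CCR7+ DCs with Ptgs+/+ cells over untreated ones, 0 of 11 lipogenic genes were higher and 7 lower (3.26% and 25.7% of all genes). In the same comparison 0 of 5 efflux genes were higher and 4 lower. Fasn stood at 8.92 against 29.8 CPM and Abcg1 at 63.4 against 106 CPM. The background for each comparison is that given above for the same cells.

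Across the 41 combinations of class and group in 5555 tumours, Hmgcs1 (Spearman's rho 0.90), Idi1 (0.87), Srebf2 (0.83) and Cyp51 (0.83) followed the sum of the other synthesis enzymes most closely. Over the 14 classes of CT26 tumours Fdft1 (0.91), Idi1 (0.89), Cyp51 (0.88) and Sqle (0.85) did. Insig2 ran against it in both (-0.47 and -0.74), and Npc1 in 5555 tumours (-0.53). Over the 18 combinations of class and condition in cultures the order was another, with Hsd17b7 and Nsdhl highest (0.62 each), Hmgcs1 at 0.54, Cyp51 at 0.34, Idi1 and Insig2 at 0.12 and Srebf2 at 0.08. The points share libraries and differ in depth, so these are descriptions only. Values of Fdft1 and Tm7sf2 carry the further limit that an exon of each overlaps that of another gene.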

How the data were processed

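The values the authors deposited are log2(CPM + 1) for each gene in each cell, where CPM scales the UMIs of a cell to the same total in all cells. Per the submitters' processing notes, Partek, Cell Ranger 3.0.2 and the genome build mm10 were used; their settings and the counting strand are not given in the sources used here. Values were turned back to CPM and then to UMIs, and 99.9% of values came out whole within 0.1 UMI plus 0.01% of the value. Cells were grouped by the authors' annotation of type and sample, and classes with at least 30 cells per group were compared. The 5555 libraries held 13341052 (Ptgs+/+), 24254766 (Ptgs-/-) and 23193676 (NK-depleted) UMIs, CT26 39748449, and the cultures 35105360 (untreated), 36870662 (with Ptgs+/+ cells) and 32883810 (with Ptgs-/- cells).

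A level is the mean CPM over cells, and a fold change is on the log2(mean CPM + 5) scale, which understates changes of low genes. Genes seen in at least 5% of cells of either group were counted, and the same share was computed over all such genes. Medians of all genes are over those with a UMI in 10% or more of cells. UMI ratios pool the cells and carry exact conditional binomial 95% intervals, and intervals of levels are exact Poisson; both cover counting error only. With 1 library or condition per group there was no test. The text names the members with the largest folds in each role group among those seen in at least 10% of cells, up to 4, and any member past 1.5-fold in the main classes; from other lists it names up to 3. The members and lists were chosen with earlier results of these data known. The computations were tested on simulated data. Python 3.11.15, numpy 2.4.6, scipy 1.17.1, pandas 2.3.3 and matplotlib 3.10.9 were used.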

Additional observations from a re-analysis of the deposited data

Results flagged for a closer look

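The synthesis sum differed in direction between cell classes under the same contrast, where the counting intervals of the pooled UMI ratios lay on opposite sides of 1. The folds printed here are of mean CPM over cells, which is another measure. These differences between classes were not tested, since each group is 1 library or condition. Ptgs-/- over Ptgs+/+ tumours gave a log2 fold of 0.79 in CCR7+ DCs but -0.50 in cDC2s and -0.61 in pooled monocytes and macrophages. With the monocyte and macrophage clusters weighted equally the last value was -0.26. NK depletion of Ptgs-/- tumours gave 0.17 in CCR7+ DCs and 0.09 in monocytes and macrophages but -0.66 in cDC1s. For these CCR7+ DCs the log2 UMI ratio was 0.47 (0.23 to 0.70), while the counting intervals of their mean CPM levels overlapped. In cultures, Ptgs+/+ cells over untreated gave 0.37 in CCR7+ DCs and 0.33 in cDC2s but -0.25 in cDC1s, and Ptgs-/- cells over untreated gave 0.22 in cDC2s but -0.05 in CCR7+ DCs and -0.33 in cDC1s. For CCR7+ DCs with Ptgs-/- cells over untreated the log2 UMI ratio was -0.14 (-0.22 to -0.06), while the counting intervals of the levels overlapped. Both culture contrasts share the untreated cells, and relative to the median of all genes the CCR7+ DC value with Ptgs-/- cells was 0.18. No group had 4 or more samples, so no sample could be checked against the rest of its group.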

How the results depend on the processing

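Under other settings 104 recomputed values stayed near the reported value and 38 moved further. For sums, near means inside a window centred on the reported fold of mean CPM. That window is as wide as the counting interval of the log2 UMI ratio but is not that interval. For counts of members, near means within 1.5 times. Change of sign was checked only for sums that reached 1.5-fold as reported. These were the log2 folds of Ptgs-/- over Ptgs+/+ tumours in CCR7+ DCs (0.79) and in monocytes and macrophages (-0.61), and 0 of those changed. Smaller sums were outside that check, and those of CCR7+ DCs over cDC2s in CT26 tumours and untreated cultures changed sign. The synthesis sum is given below as log2 folds. For Ptgs-/- over Ptgs+/+ tumours it was 1.30 in CCR7+ DCs with the mean log2 per cell, and in monocytes and macrophages -0.36 with the mean log2 and -0.26 with clusters weighted equally. For NK depletion it was 0.47 in CCR7+ DCs with summed UMIs and 0.39 in monocytes and macrophages with the mean log2. For CCR7+ DCs with Ptgs+/+ cells over untreated it was 0.20 (summed UMIs), 0.56 (mean log2), 0.65 (relative to the median of all genes), 0.18 (without Pmvk) and 0.024 (without Idi1 and Pmvk), and for cDC2s 0.28 (summed UMIs), 0.41 (without cycling cells), 0.45 (relative) and 0.27 (without Fdps). For cultures with Ptgs-/- over Ptgs+/+ cells it was -0.34 (summed UMIs) and -0.81 (mean log2) in CCR7+ DCs. For CCR7+ DCs over cDC2s it was 0.84 (mean log2), 0.87 (relative) and 0.044 (without Idi1 and Pmvk) in Ptgs-/- tumours. In CT26 tumours it was 0.10 (summed UMIs), -0.69 (mean log2), 0.29 (relative), -0.58 (without Pmvk) and -1.09 (without Idi1 and Pmvk), against -0.07 as reported, so its direction depends on the setting. In untreated cultures it was 0.065 (summed UMIs), -0.28 (mean log2), 0.060 (without cycling cells), 0.11 (relative), 0.11 (without Fdps) and -0.26 (without Idi1 and Pmvk), against -0.01. At 2-fold, 8 instead of 13 members were higher in CCR7+ DCs of Ptgs-/- over Ptgs+/+ tumours, and 12 instead of 19 lower in CCR7+ DCs than cDC2s of Ptgs+/+ tumours. In monocytes and macrophages 3 instead of 6 were lower with the filter of 10% of cells, 3 with a pseudocount of 20, 0 with the mean log2 and 1 at 2-fold. Between co-cultures 1 instead of 4 was lower in CCR7+ DCs with a pseudocount of 20 and 0 at 2-fold. The settings without Idi1 and Pmvk and with equal clusters were chosen after seeing the data, and the cause of the other moves was not tested. No paired analysis was possible because each group is 1 library or condition, and no replicate could be left out. Depth limits the precision in the small classes of 5555 tumours: CCR7+ DCs had 45 to 58 cells per group, cDC1s 33 to 54 and B cells 36 and 44.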
